A study of Mus musculus with 8 samples.

Results

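Transcripts of 10 cell-surface genes that serve in adhesion or as markers of cell state were described on 8 Affymetrix Mouse Gene 2.1 arrays. The genes were taken by symbol (Pecam1, Jam2, Icam1, Vcam1, Alcam, Ncam1, Cd9, Cd24a, Cd44 and Cd34), and a probe set counted for a gene only where the platform annotation gave it that gene alone. All 10 were found, on 12 probe sets, among 22180 named genes. All 10 passed the filter on low values (above the median of all values on 2 or more arrays), as did 13597 genes in all. Vcam1, Alcam, Cd44 and Cd34 passed it only through the 2 arrays of the group FGF-ESC (described below), where they were high. Further probe sets that the annotation shares between Ncam1 or Cd34 and a second gene were not used.

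The samples were wild-type C57BL/6J mouse, with 2 arrays in each of 4 groups. FGF-ESC and EpiSC are cell lines grown in KODMEM with 20% KSR (a serum replacement) and FGF2 on MEF, a feeder layer of mouse embryonic fibroblasts. ESC lines had no feeder layer and were grown with 2i/LIF in DMEM, to which the sample labels add 15% FCS. 2i is a pair of kinase inhibitors that act on ERK signalling and GSK3. ICM is inner cell mass taken by immunosurgery from uncultured blastocysts of embryonic day 3.5, the same stage that the labels give as the origin of the lines, EpiSC included. RNA of the ICM was extracted with another column kit than that of the lines. Whether a group's arrays stand for separate lines, cultures or embryo pools is not said in the labels. Medium, serum, feeders and cell state changed together between ESC and the other lines, and culture and extraction kit between ICM and the lines, so these cannot be told apart. In such bulk RNA, fewer cells of a type and less RNA per cell cannot be told apart either.

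As background, these proteins fall into a few structural kinds. Pecam1, Jam2, Icam1, Vcam1, Alcam and Ncam1 are membrane proteins of the immunoglobulin superfamily that bind the same molecule on a neighbouring cell, a related molecule or an integrin. Cd9 is a tetraspanin, Cd24a a small, heavily glycosylated protein held by a lipid anchor, Cd44 a receptor for hyaluronan and Cd34 a sialomucin. Pecam1 is used to mark naive embryonic stem cells and endothelium, Cd9 to sort pluripotent cells, and Cd44, Vcam1 and Cd34 are found on many stromal cells.

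Promoter windows are printed for 3 genes that shared one profile, Alcam, Cd44 and Cd34, and for Cd9, which had another. They come from RefSeq (build GRCm38.p6), run from 250 bases before to 50 bases after the start of transcription and were given for 5 of the 10 genes. The windows are chr16:52453032-52453331 on the minus strand for Alcam, chr2:102901616-102901915 (minus) for Cd44, chr1:194938571-194938870 (plus) for Cd34 and chr6:125494711-125495010 (minus) for Cd9. Capitals mark the matches described below them.
Alcam: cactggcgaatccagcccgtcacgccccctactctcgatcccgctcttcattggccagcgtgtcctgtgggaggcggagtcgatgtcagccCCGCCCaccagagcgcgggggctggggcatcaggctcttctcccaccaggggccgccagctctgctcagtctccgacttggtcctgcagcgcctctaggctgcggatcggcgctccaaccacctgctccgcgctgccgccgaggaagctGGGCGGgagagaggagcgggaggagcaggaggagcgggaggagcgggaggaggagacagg
Cd44: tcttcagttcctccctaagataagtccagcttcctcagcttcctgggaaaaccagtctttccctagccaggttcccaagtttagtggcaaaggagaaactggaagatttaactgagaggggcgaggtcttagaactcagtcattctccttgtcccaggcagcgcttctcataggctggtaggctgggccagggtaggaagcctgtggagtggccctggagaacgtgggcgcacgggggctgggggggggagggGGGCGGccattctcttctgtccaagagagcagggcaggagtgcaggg
Cd34: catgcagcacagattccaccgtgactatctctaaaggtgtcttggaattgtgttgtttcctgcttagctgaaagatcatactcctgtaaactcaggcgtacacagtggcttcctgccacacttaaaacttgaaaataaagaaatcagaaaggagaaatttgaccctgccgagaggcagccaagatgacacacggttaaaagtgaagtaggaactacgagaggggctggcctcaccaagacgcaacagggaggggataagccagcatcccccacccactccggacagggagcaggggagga
Cd9: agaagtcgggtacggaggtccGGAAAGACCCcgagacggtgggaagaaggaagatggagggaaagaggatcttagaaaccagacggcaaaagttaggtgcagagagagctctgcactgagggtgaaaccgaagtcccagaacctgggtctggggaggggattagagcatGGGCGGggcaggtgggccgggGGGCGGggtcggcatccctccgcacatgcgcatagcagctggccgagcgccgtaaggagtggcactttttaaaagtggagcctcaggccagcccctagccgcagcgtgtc

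Motifs of 7 kinds were searched on both strands. The capitals are GC boxes (GGGCGG), of which Alcam and Cd9 held 2 each, Cd44 held 1 and Cd34 held 0, and in Cd9 also 1 match to an NF-kappaB type site (GGG and TTTCC with any 2 bases between them) at bases -229 to -220. A GC box was found in 35.7% of all 32851 promoter windows of this length and the NF-kappaB type site in 1.63%. The other motifs, AP-1 (TGA and TCA with any base between them, in 7.81% of all windows), ESRRB (TCAAGGTCA, 0.423%), KLF (GGGNGTGG, 17.6%), the octamer (ATGCAAAT, 1.74%) and the letters TATAAA (13.6%), had no match in these 4 windows, which says only that these letters are not there. No match overlapped another. The window of Icam1, also given but not printed, held 2 GC boxes and 1 match to TATAAA. It held no match to the letters searched for the NF-kappaB type site or the other motifs. Sites that vary from those letters were not searched, so this does not show that the window lacks an NF-kappaB site. GC content was 69.7% in Alcam, 61.3% in Cd9, 58.0% in Cd44 and 50% in Cd34, against a median of 52.7% over all windows. So the windows of the 3 genes with one profile on the arrays ran from the most to the least GC-rich of the 4.

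Values are the deposited log2 intensities, on which 1 unit is a doubling. The median of all values was 4.24, and a mean below it is near background, so a fold against such a mean depends on that floor. Between 2 groups, a gene was called at a limma adjusted p below 0.05 (Benjamini-Hochberg, over all 13597 genes tested) together with a log2 fold change of at least 1. FGF-ESC and ESC differed in 6 of the 10 genes, 4 higher and 2 lower in FGF-ESC, where 6.21% of all tested genes were called (5.27% higher, 0.934% lower). FGF-ESC and EpiSC differed in 9, 8 higher and 1 lower, where 7.28% of all genes were called (5.26% higher, 2.02% lower). FGF-ESC and ICM differed in 7, 6 higher and 1 lower, where 14.8% of all were called (9.57% higher, 5.22% lower). ESC and EpiSC differed in 4, all higher in ESC, where 7.36% of all were called (3.5% higher, 3.86% lower). ESC and ICM differed in 3, all higher in ESC, where 11.4% of all were called (5.82% higher, 5.57% lower). EpiSC and ICM differed in 5, 2 higher and 3 lower in EpiSC, where 15.3% of all were called (8.48% higher, 6.80% lower). The median log2 fold change of the 10 genes was 0.57, 1.91 and 1.69 for FGF-ESC against ESC, EpiSC and ICM, beside -0.06, -0.04 and -0.02 over all tested genes. Comparisons that share a group are not independent of each other. Vcam1, Alcam, Cd44 and Cd34 entered the tests only through the FGF-ESC arrays and were called higher in each comparison of that group. The counts and medians of FGF-ESC therefore partly reflect the filter. With no filter on low values 6, 9 and 7 of the 10 genes were called for FGF-ESC against ESC, EpiSC and ICM. Over all 22180 named genes the counts were then 830, 989 and 2059. Vcam1, Alcam, Cd44 and Cd34 were among the called genes in this fit too.

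**Figure D1:**
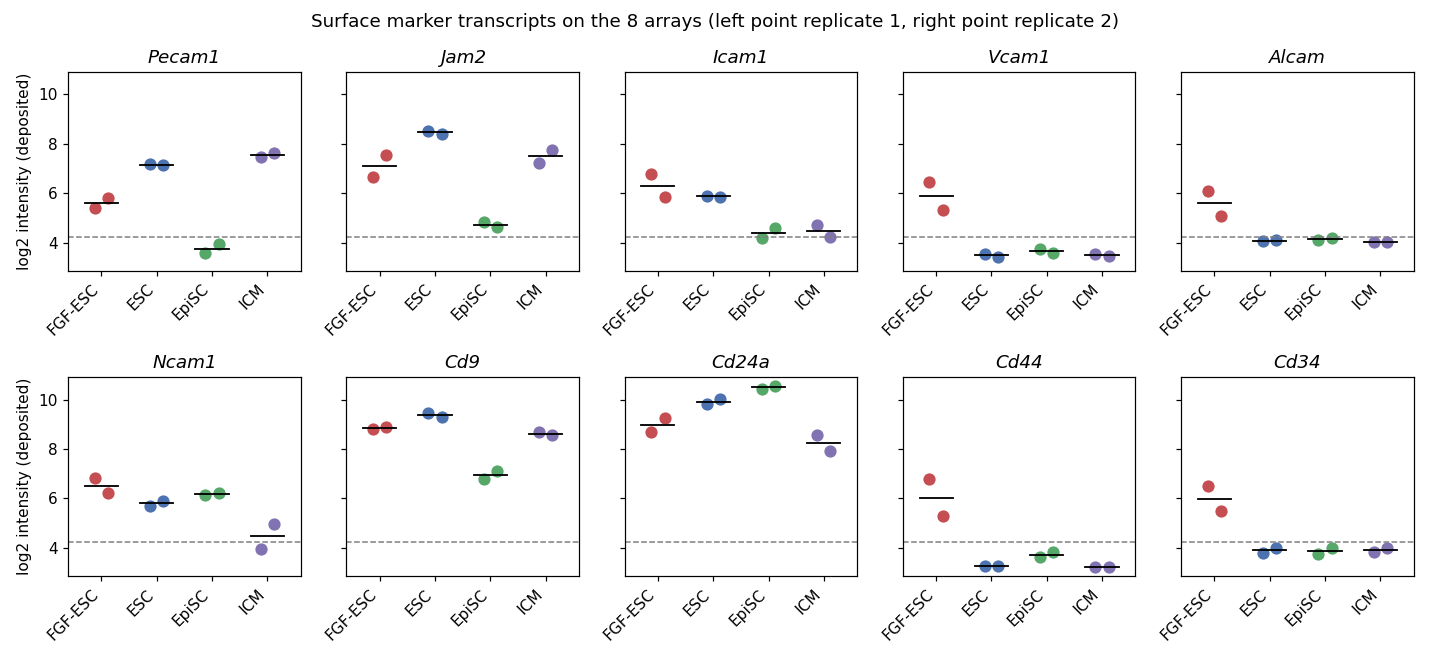
Log2 intensity of each of the 10 genes on all 8 arrays, by group; points are single arrays, the short line is the mean of the 2 arrays, and the dashed line is the median of all values, 4.24. Vcam1, Alcam, Cd44 and Cd34 lie above the dashed line on both FGF-ESC arrays and below it on the other 6 arrays.

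**Figure D2:**
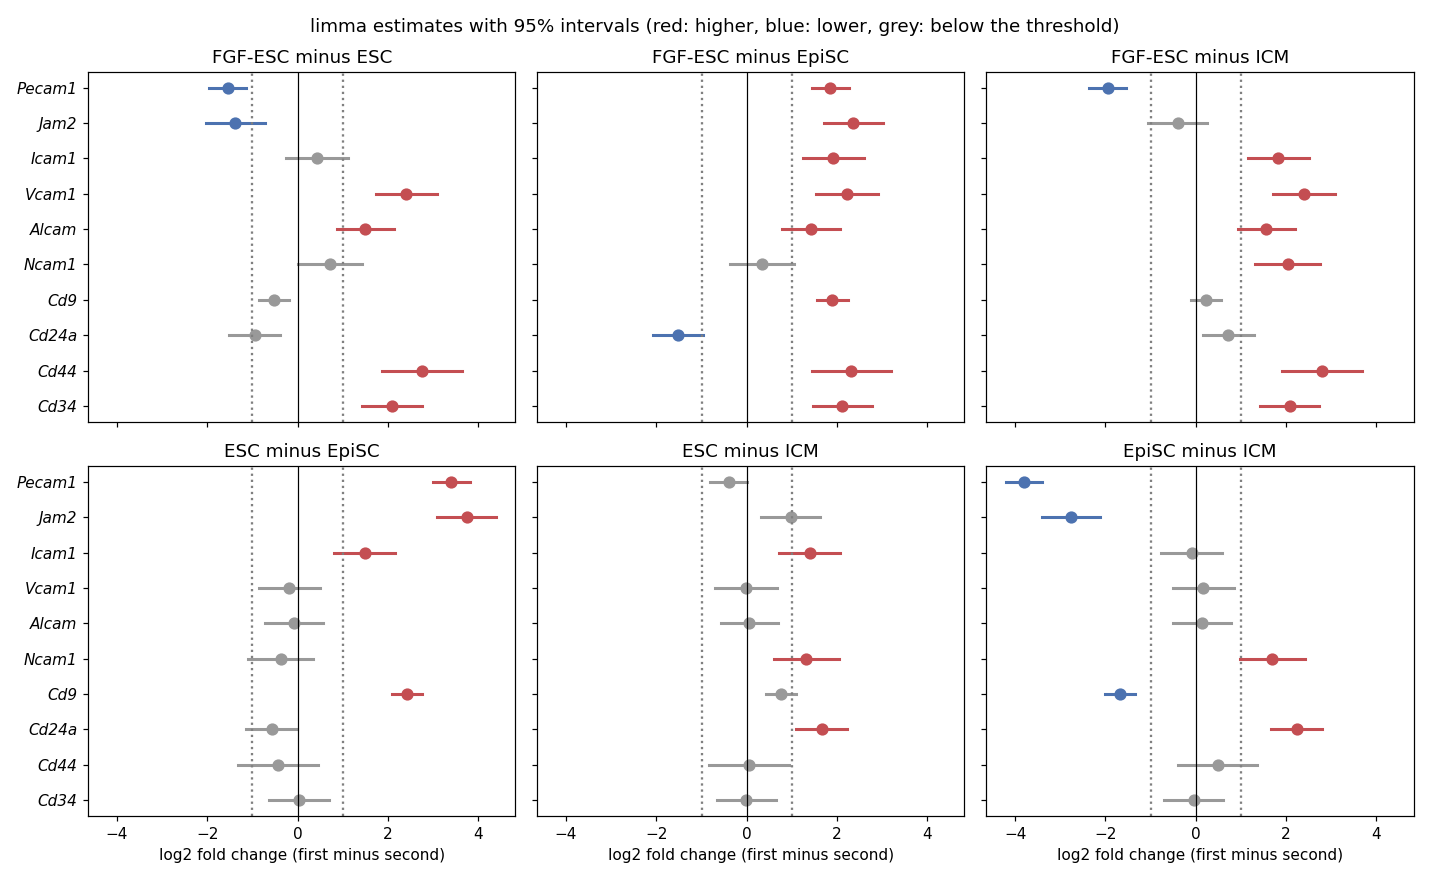
limma log2 fold changes of the 10 genes in the 6 comparisons, as the first group minus the second, with 95% intervals; dotted lines stand at a change of 1 either way, and colour shows whether the gene was called higher (red), lower (blue) or not called (grey). Of the 10 genes 9 are coloured for FGF-ESC against EpiSC and 3 for ESC against ICM.

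Pecam1 was high in ICM and ESC, lower in FGF-ESC and near background in EpiSC. This adhesion molecule (probe set 17270937) was at a log2 intensity of 7.48 and 7.63 on the ICM arrays, 7.18 and 7.13 in ESC, 5.39 and 5.82 in FGF-ESC and 3.58 and 3.92 in EpiSC. No group overlapped another, and EpiSC lay below the median of all values. The log2 fold change of FGF-ESC minus ESC was -1.55 ± 0.18 (limma SE here and below, 2 arrays in each group, adjusted p = 0.00144) and that of FGF-ESC minus EpiSC 1.86 ± 0.18 (adjusted p = 0.000355), so FGF-ESC stood between both other lines. The difference of ESC from EpiSC was 3.40 ± 0.18 (adjusted p = 1.84e-05). ICM and ESC were neighbours in this order, at a difference (ESC minus ICM) of -0.40 with a 95% interval from -0.81 to 0.006 (adjusted p = 0.122).

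Jam2, a junctional adhesion molecule, had a like order with ESC at the top. Its probe set (17326801) read 8.53 and 8.40 in ESC, 7.23 and 7.74 in ICM, 6.64 and 7.53 in FGF-ESC and 4.83 and 4.61 in EpiSC. FGF-ESC and ICM overlapped, and EpiSC lay below all other arrays. ESC exceeded EpiSC by 3.74 ± 0.28 (adjusted p = 8.04e-05), and FGF-ESC exceeded EpiSC by 2.36 ± 0.28 (adjusted p = 0.00101). FGF-ESC minus ESC was -1.38 ± 0.28 (adjusted p = 0.0165), a call that was lost without FGF-ESC replicate 1 (-0.93, adjusted p = 0.0340), without ESC replicate 1 (adjusted p = 0.126), without ESC replicate 2 (adjusted p = 0.0952) and in a fit of these 2 groups alone (adjusted p = 0.0612). FGF-ESC and ICM differed by -0.40, with an interval from -1.05 to 0.25, and by 0.04 without FGF-ESC replicate 1. ESC were above ICM by 0.98 ± 0.28 (adjusted p = 0.0297), just under the fold minimum.

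Icam1 and Vcam1 are ligands for integrins of leukocytes, and both genes are inducible by NF-kappaB in other cells. Icam1 (probe set 17515074) read 6.76 and 5.84 in FGF-ESC and 5.89 and 5.86 in ESC, against 4.73 and 4.23 in ICM and 4.19 and 4.58 in EpiSC. FGF-ESC overlapped ESC, EpiSC overlapped ICM, and the first pair lay above the second. The difference was 1.49 ± 0.30 between ESC and EpiSC (adjusted p = 0.00954) and 1.40 ± 0.30 between ESC and ICM (adjusted p = 0.00782). FGF-ESC were above EpiSC by 1.92 ± 0.30 (adjusted p = 0.00326) and above ICM by 1.83 ± 0.30 (adjusted p = 0.00185). The difference of FGF-ESC from ESC, 0.43 with an interval from -0.25 to 1.11, did not pass and was -0.03 without FGF-ESC replicate 1. The call against EpiSC in ESC was lost without ESC replicate 1 (adjusted p = 0.0746), ESC replicate 2 (0.0668) or EpiSC replicate 1 (0.0827), and that against ICM without ESC replicate 1 (0.0568) or ICM replicate 2 (0.0576).

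Vcam1 (probe set 17409649) was raised on the FGF-ESC arrays alone. It read 6.44 and 5.34 there, 3.53 and 3.45 in ICM, 3.74 and 3.58 in EpiSC and 3.53 and 3.42 in ESC, all 6 of the latter below the median of all values. The log2 fold change of FGF-ESC was 2.41 ± 0.30 against ESC (adjusted p = 0.00192), 2.23 ± 0.30 against EpiSC (0.00169) and 2.40 ± 0.30 against ICM (0.000468). It was 1.86, 1.68 and 1.85 without FGF-ESC replicate 1, still past the threshold. The other 3 groups lay within 0.18 of each other in their means, with intervals for their differences that reached at most 0.87 either way.

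Alcam, which binds Cd6 on lymphocytes and itself on neighbouring cells, was likewise raised in FGF-ESC, by less. Its probe set (17330918) read 6.10 and 5.07 in FGF-ESC, 4.03 and 4.02 in ICM, 4.12 and 4.199 in EpiSC and 4.05 and 4.11 in ESC. FGF-ESC were higher than ESC by 1.502 ± 0.28 (adjusted p = 0.0109), than EpiSC by 1.42 ± 0.28 (0.00922) and than ICM by 1.56 ± 0.28 (0.00297). The fold was below the minimum without FGF-ESC replicate 1 against ESC (0.99) and EpiSC (0.91), and 1.05 against ICM. The calls against ESC and EpiSC were also lost without either array of the other group (adjusted p from 0.0535 to 0.0927) and in fits of the 2 groups alone (0.0656 and 0.0667).

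Ncam1, a neural cell adhesion molecule that can carry polysialic acid, separated the cultured lines from ICM. It was at 6.81 and 6.21 in FGF-ESC, 6.15 and 6.20 in EpiSC, 5.71 and 5.89 in ESC and 3.97 and 4.98 in ICM (probe set 17526776). Every cultured array lay above both ICM arrays, which differed from each other by 1.02. The log2 fold change against ICM was 2.04 ± 0.31 in FGF-ESC (adjusted p = 0.00140), 1.70 ± 0.31 in EpiSC (0.00318) and 1.32 ± 0.31 in ESC (0.0129). The ESC call was lost without either ESC array (0.0610 and 0.0859) or without ICM replicate 1, where the change was 0.81 (0.0519). Among the lines the differences did not pass. FGF-ESC minus ESC was 0.72 with an interval from -0.001 to 1.43, and ESC minus EpiSC was -0.38 with one from -1.10 to 0.34.

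Cd9, a tetraspanin that organises integrins and other partners in the membrane, was lowest in EpiSC. Its brighter probe set (17471127) was at 9.46 and 9.28 in ESC, 8.83 and 8.87 in FGF-ESC, 8.67 and 8.57 in ICM and 6.78 and 7.12 in EpiSC. ESC minus EpiSC was 2.42 ± 0.15 (adjusted p = 3.12e-05), while FGF-ESC were above EpiSC by 1.90 ± 0.15 (0.000127) and EpiSC minus ICM was -1.67 ± 0.15 (5.81e-05). FGF-ESC and ICM differed by 0.23, with an interval from -0.11 to 0.57. FGF-ESC minus ESC was -0.52 ± 0.15 (adjusted p = 0.0467) and ESC minus ICM 0.75 ± 0.15 (0.00514), both under the fold minimum. The other Cd9 probe set (17463201) stayed between 3.85 and 4.42 on all arrays, near background, and showed no drop of that size (ESC minus EpiSC 0.24). With the mean of both probe sets, FGF-ESC minus EpiSC was 0.91 and EpiSC minus ICM -0.86, so these calls were lost.

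Cd24a had another order than Cd9, by the place of EpiSC. It was highest in EpiSC, at 10.44 and 10.54, followed by ESC at 9.82 and 10.01, FGF-ESC at 8.69 and 9.25 and ICM at 8.58 and 7.92 (probe set 17240606). No group overlapped the next. EpiSC exceeded ICM by 2.24 ± 0.24 (adjusted p = 0.000196), ESC exceeded ICM by 1.66 ± 0.24 (0.00133), and FGF-ESC minus EpiSC was -1.52 ± 0.24 (0.00395). The other neighbours did not pass. FGF-ESC minus ESC was -0.95 ± 0.24 (0.0368), ESC minus EpiSC -0.58 ± 0.24 (0.152) and FGF-ESC minus ICM 0.72 ± 0.24 (0.0502). The other probe set (17233022) kept the order of the group means with wider gaps: 9.64 in EpiSC, 8.90 in ESC, 7.66 in FGF-ESC and 6.34 in ICM. With the mean of both probe sets, FGF-ESC minus ESC was -1.09 and FGF-ESC minus ICM 1.02, and both passed.

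Cd44, the hyaluronan receptor, was higher in FGF-ESC than in each other group. Its probe set (17388733) read 6.78 and 5.29 in FGF-ESC, 3.24 and 3.22 in ICM, 3.61 and 3.81 in EpiSC and 3.28 and 3.27 in ESC. FGF-ESC exceeded ESC by 2.76 ± 0.39 (adjusted p = 0.00341), EpiSC by 2.32 ± 0.39 (0.00452) and ICM by 2.80 ± 0.39 (0.000805), and by 2.02, 1.58 and 2.06 without replicate 1. The FGF-ESC arrays themselves differed by 1.49. EpiSC arrays lay above those of ESC and ICM, but ESC minus EpiSC was -0.44 with an interval from -1.32 to 0.45, and all 6 values were below the median.

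Cd34, a sialomucin of haematopoietic progenitors, endothelium and some stromal cells, followed Cd44. It read 6.50 and 5.48 in FGF-ESC, 3.81 and 4.01 in ICM, 3.75 and 3.99 in EpiSC and 3.80 and 4.01 in ESC (probe set 17221014). The 3 latter groups overlapped one another and lay below the median. FGF-ESC were higher than ESC by 2.09 ± 0.29 (adjusted p = 0.00314), than EpiSC by 2.12 ± 0.29 (0.00179) and than ICM by 2.08 ± 0.29 (0.000816). Without replicate 1 these were 1.58, 1.62 and 1.57.

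Between the FGF-ESC arrays the 10 genes moved in both directions. Vcam1, Alcam, Cd44 and Cd34 were higher on replicate 1 than on replicate 2 by 1.10, 1.03, 1.49 and 1.01, where 2.68% of all tested genes were higher there by 1 or more. Icam1 and Ncam1 were also higher there, by 0.92 and 0.60. Pecam1, Jam2 and Cd24a were lower on replicate 1, at -0.43, -0.89 and -0.56, and Cd9 differed by -0.04. In ESC no gene of the 10 differed between arrays by more than 0.21.

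**Figure D3:**
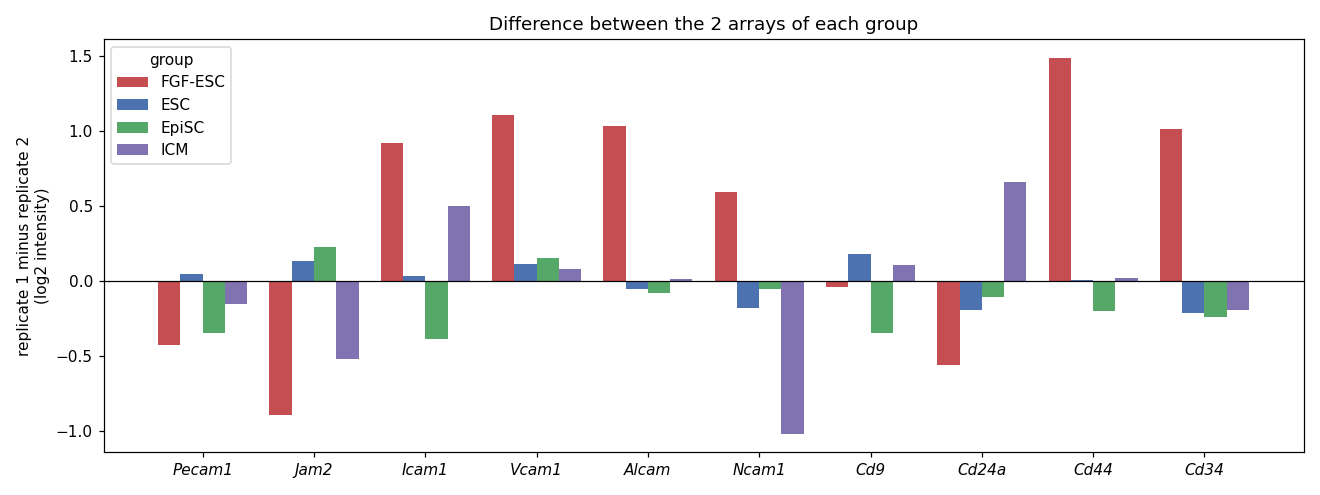
Difference between the 2 arrays of each group (replicate 1 minus replicate 2, log2 intensity) for the 10 genes, with a bar for each group. In FGF-ESC the bars of Icam1, Vcam1, Alcam, Ncam1, Cd44 and Cd34 point up and those of Pecam1, Jam2, Cd9 and Cd24a point down; Ncam1 in ICM differs by -1.02.

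Markers of fibroblasts moved with Vcam1, Alcam, Cd44 and Cd34. The mean log2 intensity of 27 fibroblast markers was 4.33 and 4.47 in ICM, 4.87 and 5.11 in EpiSC, 4.205 and 4.25 in ESC but 8.31 and 7.04 in FGF-ESC, and 27 and 25 of them were above the median of all values in FGF-ESC. Of 25 tested, 23 were called higher in FGF-ESC than in ESC, 21 than in EpiSC and 24 than in ICM, and 0 lower. The shares of all tested genes were 5.27%, 5.26% and 9.57% higher and 0.934%, 2.02% and 5.22% lower. Over the 8 arrays, which share their groups, Pearson's r with that level was 0.99 for Cd44, 0.99 for Vcam1, 0.98 for Alcam and 0.97 for Cd34. It was 0.64 for Ncam1, 0.61 for Icam1, 0.05 for Cd9, -0.17 for Jam2, -0.21 for Cd24a and -0.35 for Pecam1. In EpiSC, grown on the same kind of feeder, the 4 genes stayed below the median of all values. The fibroblast level there was also far below that of FGF-ESC, with 6 of the 25 markers called higher than in ESC. The part of fibroblast RNA in the levels of the surface genes was not tested in any group.

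Several of the 10 genes also mark endothelium or blood cells, whose own markers were mixed. The mean level of 17 endothelial markers ran only from 4.01 to 4.15 over the 8 arrays. Kdr, Cldn5 and Erg were below the median of all values on all 8 arrays, and Cdh5 lay between 3.996 and 4.36. Egfl7 and Eng were above it in FGF-ESC, with means of 5.64 and 5.66, but not there alone. ESC arrays had means of 5.79 for Egfl7 and 5.30 for Eng, while those of the ICM arrays were 5.88 and 4.60. Eng was called higher in FGF-ESC than in EpiSC (1.35 ± 0.21, adjusted p = 0.00366) and ICM (1.06 ± 0.21, 0.00549). The mean of 13 haematopoietic markers ran from 3.94 to 4.51, and Ptprc (2.88 to 3.22) and Itgam (3.29 to 3.58) were below the median on every array. Laptm5 and Cd68 were well above it, with means of 7.89 and 7.05 in ESC and 6.997 and 6.03 in FGF-ESC. Of 7 haematopoietic markers tested, 1 was higher in FGF-ESC than in ESC, Runx1 (1.15 ± 0.22, adjusted p = 0.0130), and 1 lower, Cd68 (-1.02 ± 0.25, 0.0317), and that count was 0 without FGF-ESC replicate 1 or either ESC array. In FGF-ESC against ESC, 5.27% of all tested genes were higher and 0.934% lower. Against EpiSC, 3 of the 7 were higher in FGF-ESC and 0 lower, beside 5.26% and 2.02% of all genes. They were Laptm5 (2.79 ± 0.18), Runx1 (1.03 ± 0.22) and Cd68 (1.01 ± 0.25). That count was lower without FGF-ESC replicate 1 or either EpiSC array. Against ICM, 1 was higher, Laptm5 (1.89 ± 0.18), and 0 lower, beside 9.57% and 5.22% of all genes. The part of endothelial or blood cells in the levels of the surface genes was not tested. Naive pluripotency markers averaged 7.50 and 7.57 in ICM, 4.97 and 5.35 in EpiSC, 7.81 and 7.82 in ESC and 7.02 and 7.44 in FGF-ESC, and the primed list was highest in EpiSC (6.52 and 6.70).

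Other genes of the same families gave a mixed picture. Of 24 tested immunoglobulin-type adhesion genes, 1 was higher and 1 lower in FGF-ESC than in ESC (4.17% each, beside 5.27% and 0.934% of all genes). They were Cd47, the ligand of a macrophage inhibitory receptor, which rose by 3.51 ± 0.35 (adjusted p = 0.000711), and the laminin receptor Bcam, at -1.61 ± 0.20 (0.00193). Cadm4 (-0.83 ± 0.18) and Nectin3 (0.50 ± 0.15) did not pass. Between ESC and EpiSC, 2 were higher in ESC, Bcam (2.31 ± 0.20) and Pvr (1.92 ± 0.38), and 1 was lower, Nfasc (-1.10 ± 0.14). The Pvr call was lost without either ESC array or EpiSC replicate 1, and that of Nfasc without EpiSC replicate 2 (-0.97). Against ICM, 8 were higher and 4 lower in FGF-ESC, 6 and 1 in ESC and 6 and 2 in EpiSC. Of all tested genes 9.57%, 5.82% and 8.48% were higher and 5.22%, 5.57% and 6.80% lower. Among those called was Jam3, a relative of Jam2, at 1.68 ± 0.26 in ESC minus ICM, while Jam2 itself was at 0.98.

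Among 21 tested tetraspanins and partners, Cd81, a close relative of Cd9, was higher in all 3 lines than in ICM. It was at 10.43 in FGF-ESC, 10.11 in ESC and 9.35 in EpiSC but 5.30 in ICM, with log2 fold changes against ICM of 5.13 ± 0.29 (adjusted p = 9.81e-06), 4.81 ± 0.29 (1.59e-05) and 4.05 ± 0.29 (2.07e-05). Cd9 had a mean of 8.62 in ICM, and its own differences from ICM were 0.23, 0.75 and -1.67. Tspan6 was lower in ESC than in EpiSC by -2.86 ± 0.24 (0.000120), and Tspan8 was lower in FGF-ESC than in ICM by -2.80 ± 0.31 (0.000265). In FGF-ESC against ESC 4 of the 21 rose and 0 fell, beside 5.27% and 0.934% of all genes. Those that rose were Tspan6 (1.40 ± 0.24), the EGF-type growth factor Hbegf (1.76 ± 0.32), Tspan17 (1.11 ± 0.26) and Cd53 (2.17 ± 0.55). The count was 0 without ESC replicate 1 or ESC replicate 2. Without FGF-ESC replicate 1 the folds of Cd53, Hbegf and Tspan17 were 1.08, 1.16 and 0.70, and Tspan17 no longer passed.

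Of 14 tested sialomucins and lipid-anchored surface markers, 2 were higher and 1 lower in FGF-ESC than ESC, beside 5.27% and 0.934% of all genes. Thy1, a surface glycoprotein of fibroblasts, was at 9.80 and 5.39 and rose by 4.42 ± 0.22 (adjusted p = 2.84e-05), Ly6e rose by 2.29 ± 0.23 (0.000764), and Alpl, alkaline phosphatase, was at -1.01 ± 0.23 (0.0246), a call lost without FGF-ESC replicate 1 (-0.68) or either ESC array. Between ESC and EpiSC, 2 were higher in ESC, Fut9 (1.53 ± 0.19), which helps to build the SSEA-1 sugar epitope, and Alpl (1.77 ± 0.23), and 2 lower, Cd59a (-2.39 ± 0.23) and Ly6e (-1.81 ± 0.23). The 20 tested binding partners of the surface genes had a median change of 0.13 in FGF-ESC against ESC. Of them 3 rose and 0 fell, beside 5.27% and 0.934% of all genes. They were the hyaluronan-binding proteoglycan Vcan (1.70 ± 0.35, adjusted p = 0.0169), the hyaluronan synthase Has2 (2.13 ± 0.53, 0.0324) and Msn, which links Cd44 to actin (1.01 ± 0.28, 0.0446). That count was 0 without either ESC array and 8 without FGF-ESC replicate 2. Without FGF-ESC replicate 1 the folds of Has2, Vcan and Msn were 1.11, 1.05 and 0.51, and Msn no longer passed.

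NF-kappaB pathway genes that passed were nearly all higher in FGF-ESC. Against ESC, 9 of 21 tested genes rose and 0 fell, against EpiSC 10 and 0, and against ICM 11 and 1, with medians of 0.63, 0.93 and 1.09. Of all tested genes 5.27%, 5.26% and 9.57% were higher and 0.934%, 2.02% and 5.22% lower. The tested subunit genes Rela (0.63 ± 0.31), Rel (0.71 ± 0.19), Relb (-0.55 ± 0.14) and Nfkb2 (0.125 ± 0.21) did not pass against ESC. Against ICM, Rela was called higher (1.09 ± 0.31) and Rel lower (-1.68 ± 0.19). The chemokine Ccl2 rose against ESC by 6.85 ± 0.26 (adjusted p = 7.30e-06), the interleukin receptor Il1r1 by 3.80 ± 0.20 (3.43e-05), Ccl5 by 2.54 ± 0.21 (0.000295) and Cxcl1 by 4.41 ± 0.43 (0.000658). The count against ESC was 5 without ESC replicate 1 or ESC replicate 2. The mean of 24 such genes lay between 4.99 and 5.15 outside FGF-ESC and reached 6.89 and 6.17 there, so it also was higher on replicate 1, the array with the higher fibroblast level, and the part of fibroblast RNA in it was not tested.

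**Figure D4:**
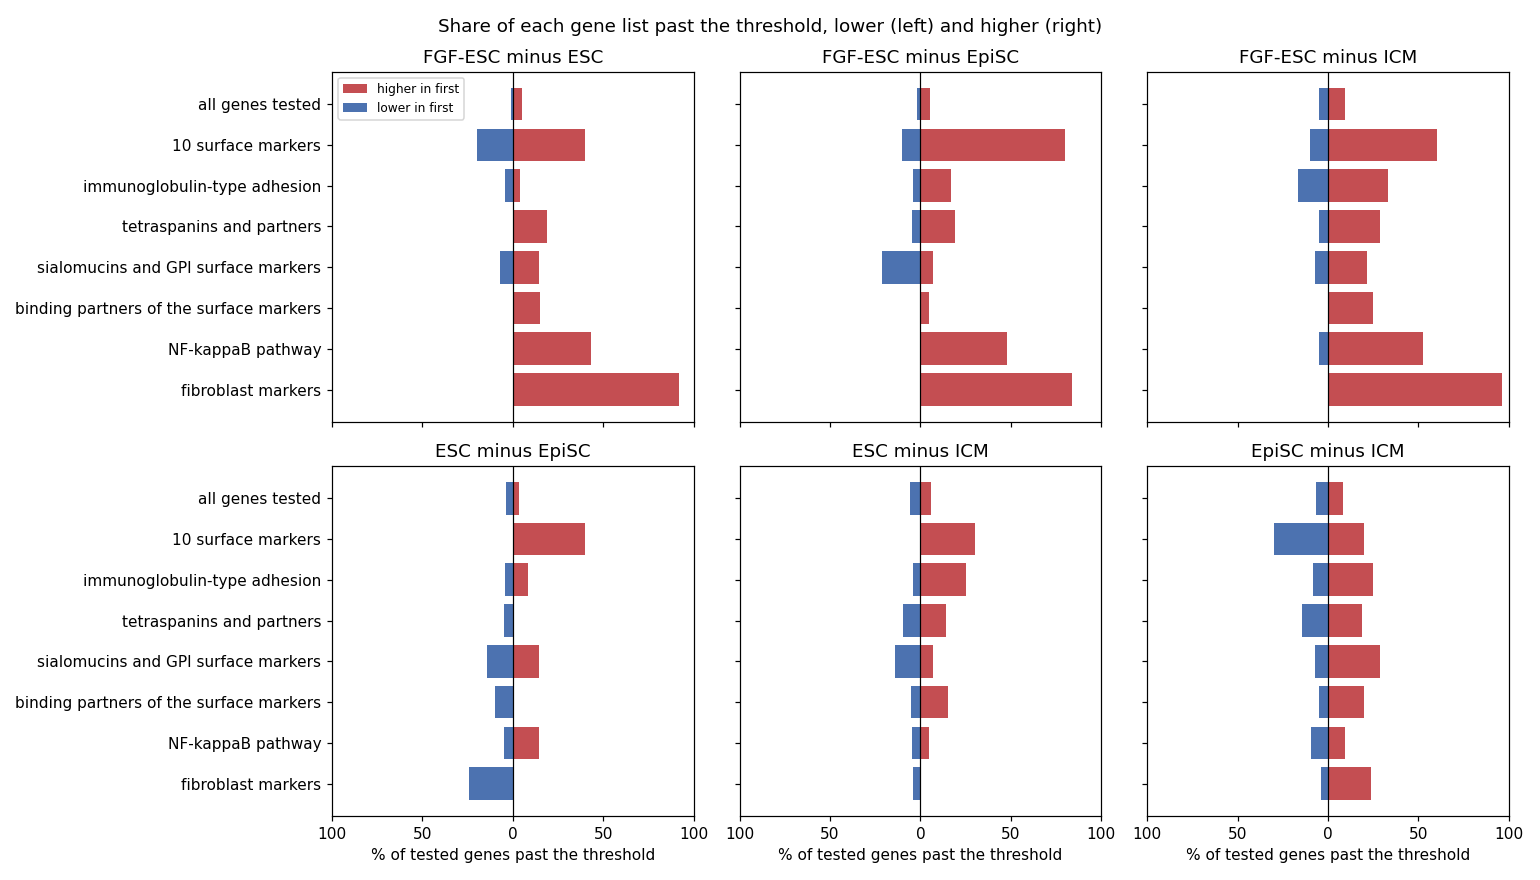
Share of the tested genes of each list that were called higher (right, red) or lower (left, blue) in the first group of each of the 6 comparisons, with all tested genes at the top. Fibroblast markers (25 tested) and NF-kappaB genes (21 tested) point right in the 3 comparisons of FGF-ESC, while 1 of 24 immunoglobulin-type adhesion genes points each way between FGF-ESC and ESC.

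The genes most alike to each member over the 8 arrays, by Pearson's r on log2 intensity, differed between the profiles. For Pecam1 they were Folr1 (r = 0.99) and 3110040N11Rik (0.99), for Jam2 Msh6 (0.997) and Dyrk3 (0.99), and for Cd9 Mylpf (0.99) and Gab1 (0.99). For Vcam1 they were Cpq (0.997) and Gm6634 (0.997), for Alcam Tm4sf1 (0.998) and Myof (0.998), for Cd44 Adamts14 (0.999) and Axl (0.997), and for Cd34 Bmper (0.997) and Tfpi2 (0.996). Icam1 was most alike to Ahnak and Lasp1 (0.98 each), Ncam1 to Fam189b (0.99) and Trim26 (0.98), and Cd24a to Slbp (0.99) and Cbx5 (0.99). These r are the highest of 13597 genes over only 8 arrays in 4 groups, and are a description. Among the members, Vcam1, Alcam, Cd44 and Cd34 had r between 0.98 and 0.99 with one another, and Jam2 had 0.95 with Cd9 and 0.91 with Pecam1, while Pecam1 and Cd24a had -0.64.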

How the data were processed

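The deposited values are 1 log2 intensity per probe set and array for 41345 probe sets, made by the authors in Expression Console 1.3.1 (Affymetrix), as the submitters' processing notes list. How probes were summarised and normalized, and on which genome build, is not given in the sources used here. A log2 scale was read from the range of the deposited values. They were not normalized again. Genes were named from the 23521 probe sets with 1 gene in the platform annotation, and where a gene had several, that of the highest mean was used. Tests were run on genes that exceeded 4.24 (the overall median) on 2 or more arrays.

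A model of the 4 group means was fitted to all 8 arrays with limma 3.58.1 in R 4.3.3 (lmFit, contrasts.fit, eBayes, 4 residual degrees of freedom), with Benjamini-Hochberg adjustment in each of 6 comparisons. Every adjusted p and SE is limma's, and the SE rests on a spread shared by all 4 groups. It can understate that of FGF-ESC, whose residual SD was 0.279 against 0.124 in ESC. Since separate cultures or pools are not stated, p-values reflect nothing beyond the spread of these samples, possibly technical. Precision is limited by the number of arrays. Groups follow the sample titles.

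The members, gene lists, thresholds and tests were chosen with earlier results of these data known. Named genes are the members, the 2 genes most correlated with each, up to 4 genes of a described list with the smallest adjusted p, and defining markers. Msn and Jam3 were added after their values were seen, Msn as the last of 3 called partners and Jam3 as a relative of Jam2. So were Egfl7, Eng, Flt1, Laptm5, Cd68 and Runx1, endothelial or haematopoietic markers above the median. Rela, Rel, Relb and Nfkb2, the tested subunit genes of NF-kappaB, were also added after their values were seen. Cdh5, Kdr, Cldn5, Erg, Ptprc and Itgam were taken as defining markers. The code was tested on simulated data: of 100 genes changed by 1.5 (log2) 81 were recovered and of 100 changed by 3, 97, among 13597 genes with 5 false calls, for FGF-ESC against ESC.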

Additional observations from a re-analysis of the deposited data

How the results depend on the processing

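Alternatives were quantile normalization, no filter on low values, the mean of a gene's probe sets, the replicate number as a block, only the 2 groups compared, an intensity trend, no fold minimum and leaving out each array in turn with the same genes tested. Of the alternative values of the members' fold changes, 616 kept their direction and their side of the threshold, 22 lost and 10 gained the call, and 12 changed sign. The number of called members changed by over 1.5 times only for ESC minus ICM, from 3 to 5 with no fold minimum and to 1 to 3 with an array left out (1 without ESC replicate 1). With an array left out it was 4 to 7 (6 with all arrays) in FGF-ESC minus ESC, 8 to 9 (9) in FGF-ESC minus EpiSC, 7 to 8 (7) in FGF-ESC minus ICM, 3 to 4 (4) in ESC minus EpiSC and 5 to 5 (5) in EpiSC minus ICM. An array left out leaves its group with 1 sample, which is assumed to vary like the other groups.

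Sign changes arose only with an array left out, for members that were not called. Their lowest and highest values over the arrays left out were -0.0303 (without FGF-ESC replicate 1) and 0.8908 for Icam1 in FGF-ESC minus ESC, -0.3423 and 0.1558 (without ICM replicate 1; 0.1011 without EpiSC replicate 1) for Icam1 in EpiSC minus ICM, and -0.8486 and 0.0435 (without FGF-ESC replicate 1) for Jam2 in FGF-ESC minus ICM. For Vcam1 in ESC minus ICM they were -0.0709 and 0.0407 (without ESC replicate 2; 0.0261 without ICM replicate 1). For Cd34 they were -0.0865 (without EpiSC replicate 1; -0.0723 without ESC replicate 2) and 0.1561 in ESC minus EpiSC, -0.1162 and 0.0981 (without ESC replicate 1; 0.0876 without ICM replicate 2) in ESC minus ICM, and -0.1651 and 0.0774 (without EpiSC replicate 1; 0.0528 without ICM replicate 2) in EpiSC minus ICM. The cause was not tested.

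Same-numbered arrays did not deviate together over all tested genes (correlations of deviations from -0.09 to 0.04). With 2 arrays in each group this cannot show whether a number stands for a batch shared by some groups or genes. The labels do not say what the number means. With the replicate block 6, 9, 7, 4, 3 and 5 members were called in the 6 comparisons, and no member's call changed. Over all genes, 844 passed in FGF-ESC minus ESC, against 526 in a fit of the 2 groups, 374 without ESC replicate 1, 400 without ESC replicate 2 and 1287 without FGF-ESC replicate 2. With no fold minimum the counts over all genes in the 6 comparisons were 2087, 2692, 4984, 2584, 4488 and 5219, against 844, 990, 2011, 1001, 1548 and 2078. Signal near background limits folds for Vcam1, Alcam, Cd44 and Cd34 outside FGF-ESC, and for Pecam1 in EpiSC. Icam1 also read below 4.24 on EpiSC replicate 1 (4.19) and ICM replicate 2 (4.23), and Ncam1 on ICM replicate 1 (3.97). Their folds against these groups are limited likewise.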
